A study of Homo sapiens with 24 samples.

Results

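The insoluble and the soluble cytoplasm of unstressed U2OS cells were compared in 6 of the 24 libraries of the series, 3 of each fraction, made from the same 3 lysates and chosen by their labels. U2OS is a human osteosarcoma line. The Ctrl cells were given 0.12% DMSO for 2 h, the vehicle of the DDX3 inhibitor RK-33, and no arsenite. The other 18 libraries came from cells given 500 µM NaAsO2 for 60 min (Ars), RK-33 at 6 µM, added 1 h ahead (RK), or first RK-33 and then NaAsO2 in equal doses (RK_Ars), each with 3 lysates and both fractions. They entered the fit as further blocks and were read only where a Ctrl value needed a comparison. The nuclei had been spun out of each lysate at low speed, and a faster spin then gave a pellet, the insoluble fraction, and a supernatant, the soluble fraction. The study used the pellet as a fraction enriched for stress granules and P-bodies.

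Cytoplasmic mRNA lies in particles of very different mass. A free mRNA carries a coat of binding proteins, an mRNA under translation carries ribosomes on its coding region, and mRNAs of secreted and membrane proteins are translated on the endoplasmic reticulum (ER). Stress granules are condensates of stalled mRNAs and RNA-binding proteins that form under stress, whereas P-bodies, which hold decay and silencing factors, are also seen in unstressed cells. A spin that pellets granules can also pellet other large particles and membranes. By the study's methods the lysis buffer held a detergent, and how much ER membrane stayed intact is not known. The comparison thus asks which transcripts sediment before any stress is applied.

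The Ctrl libraries held from 11032305 to 15734705 counts, of which 8627294 to 10930016 were on exons. Levels are given as CPM, exon counts scaled to the library total after TMM normalization, and a fold change is the insoluble over the soluble fraction of the same lysate. No spike-in counts were used, so a gene is higher or lower relative to the other RNAs of its library, and the share of all copies of an mRNA that was pelleted is not known. Of 60308 genes, the 17666 with a mean of at least 1 CPM over the 24 libraries were tested with edgeR (quasi-likelihood), with the lysate as a block. A gene was called at a Benjamini-Hochberg adjusted p under 0.05 and a fold change of at least 2 (log2 of at least 1). By the study's methods the whole experiment was repeated 3 times, and the p-values measure the spread between these repeats. The chi-square per gene between Ctrl libraries of 1 fraction was 2.91 to 7.01. The libraries that stood apart from their group lay outside Ctrl: replicate 3 of the NaAsO2 insoluble fraction, with 130 and 142 against its partners, replicate 3 of the RK-33 soluble fraction, with 23.1 and 32.4, and replicate 3 of the RK_Ars insoluble fraction, with 25.5 and 32.1. They touch the Ctrl calls only through the shared spread, and without NaAsO2 replicate 3, 2133 genes were called higher and 1922 lower.

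In Ctrl, 2010 genes (11.4% of those tested) were called higher in the insoluble fraction and 1868 (10.6%) were called lower. The remaining 13788 were not called, and the median log2 fold change of all tested genes was -0.03. Which direction held more calls depended on the lysates and the scaling: there were 1540 higher and 2124 lower without Ctrl replicate 1, 1339 and 1893 without Ctrl replicate 2, 1688 and 1680 without Ctrl replicate 3, and 1673 and 2244 with library size alone. The cell line carried its own markers in both fractions: VIM, the mesenchymal intermediate filament, had 807, 979 and 882 CPM in the supernatants and 761, 797 and 800 CPM in the pellets. Of the 13 osteosarcoma markers, 10 passed the filter on low counts and COL1A2, BGLAP and SP7 did not. Of 5 leukocyte markers, only PTPRC and ITGAM passed the filter, of 4 endothelial markers PECAM1 and VWF, and of 6 epithelial markers 5.

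The length of the coding sequence was, of the properties computed, the one that ran most closely with the fraction effect. Among 13396 protein-coding genes, Spearman's rho between coding length and log2 fold change was 0.72 over all 3 lysates and 0.69, 0.70 and 0.72 in each lysate alone. These are correlations across genes of the same libraries, given as a description. Total exon length gave 0.48, the length of the canonical transcript 0.49, the 5′ UTR 0.18, the 3′ UTR 0.11, GC content 0.05 and mean level 0.06. Coding lengths were taken from the canonical transcript of each gene in GENCODE, since the files name genes and not transcripts.

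Split by coding length, the mRNAs went from depleted to enriched in the pellet without a break in the order. Below 0.5 kb, 627 of 1043 genes (60.1%) were called lower and 18 higher, with a median log2 fold change of -1.13 and medians of -1.01, -1.14 and -1.11 in the 3 lysates. From 0.5 to 1 kb, 610 of 2904 (21.0%) were lower and 70 higher, with a median of -0.64. From 1 to 2 kb, the largest class with 5143 genes, 150 were lower and 140 higher, with a median of -0.12. From 2 to 4 kb, 362 of 3204 (11.3%) were higher and 14 lower, with a median of 0.42. Above 4 kb, 592 of 1102 (53.7%) were higher and 2 lower, with a median of 1.06 and 0.94, 1.05 and 1.11 in the lysates. The classes at the ends thus held shares of called genes far above the background of all tested genes, in opposite directions. The distance between the medians of the longest and the shortest class was 1.95, 2.19 and 2.22 in the 3 lysates, or 2.12 ± 0.15 (SD, n = 3).

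**Figure D1:**
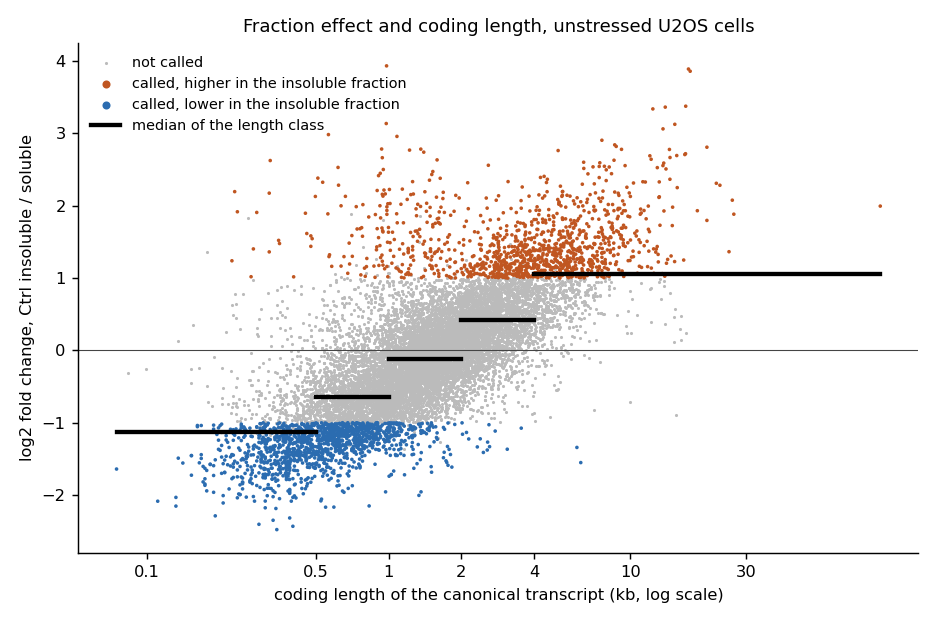
Each point is a protein-coding gene, placed by the coding length of its canonical transcript in kb on a log axis and by its log2 fold change between the Ctrl insoluble and soluble fractions, with black bars for the class medians. The medians climb from -1.13 below 0.5 kb to 1.06 above 4 kb, while single genes of every class spread widely around them.

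Within a class of coding length, the other features moved the class medians less. Over the 4 classes of GC content, the lowest and the highest median lay 0.11 to 0.12 apart within each coding length class. The same spread was 0.03 to 0.43 for 3′ UTR length, 0.12 to 0.65 for 5′ UTR length, 0.08 to 0.23 for the density of the AU-rich pentamer ATTTA in the 3′ UTR, 0.11 to 0.54 for mean level and 0.18 to 0.86 for total exon length. The widest spreads with 5′ UTR length and with 3′ UTR length were those of the class below 0.5 kb, in which genes with long UTRs lay nearer to 0.

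The order by coding length was seen in all 4 treatments. The distance between the longest and the shortest class was 2.29 ± 0.17 under NaAsO2, 2.33 ± 0.23 under RK-33 and 2.04 ± 0.06 under both (SD, n = 3 lysates each), beside 2.12 ± 0.15 in Ctrl. The Ctrl lysates overlapped with those of each of the other treatments, and with 3 lysates against 3 an exact permutation test could not go below 0.10, so no test of these distances was made. Gene by gene, the fraction effect differed between NaAsO2 and Ctrl in 662 genes that were more positive (3.75%) and 856 that were more negative (4.85%), and between RK-33 and Ctrl in 0 (0%, with 888 at an unadjusted p under 0.05) and 39 (0.221%, with 1378). Both comparisons share the Ctrl libraries.

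**Figure D2:**
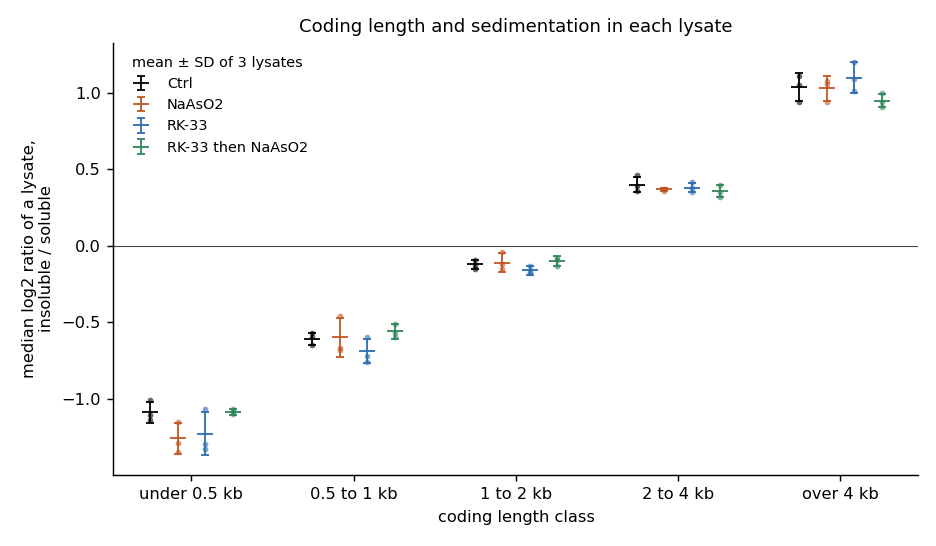
Points are the 3 lysates of each treatment and bars their mean ± SD, for the median log2 ratio of insoluble to soluble CPM in each class of coding length. In all 12 lysates the class below 0.5 kb lies lowest and the class above 4 kb highest, with Ctrl running from -1.09 to 1.04.

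Among protein-coding genes that averaged 20 CPM or more, mRNAs of giant cytoskeletal and scaffold proteins had the highest fold changes in the pellet. Of the 54 genes of this list, 53 were called higher and 0 lower, with a median log2 fold change of 2.11. The median coding length of the list was 9436.5 bases, and it also holds other giant proteins, such as the kinase PRKDC. Its members were chosen with earlier results of these data known. The count thus describes very long mRNAs and is no test of a functional class. AHNAK (chr11:62433542-62556235), a giant scaffold under the plasma membrane with a coding sequence of 17670 bases, had 1111, 841 and 845 CPM in the soluble libraries and 12006, 13138 and 15344 CPM in the insoluble libraries. All 3 insoluble libraries were far above all 3 soluble ones, by a log2 fold change of 3.86 ± 0.20 (SE, edgeR adjusted p = 3.21e-08), or 14.5-fold. Its paralogue AHNAK2 (chr14:104937244-104978374) went from 122, 85.2 and 103 to 1358, 1512 and 1712 CPM, a 14.8-fold difference (log2 3.89 ± 0.19, edgeR adjusted p = 2.78e-08).

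DYNC1H1 (chr14:101964573-102056443), the heavy chain of the dynein motor, went from 205, 194 and 191 to 1787, 1952 and 2382 CPM, which is 10.3-fold. PLEC, the cytolinker plectin, reached 10618, 9984 and 11973 CPM in the pellet from 1454, 1133 and 1318 CPM. FLNA, the actin crosslinker filamin A, was at 1950, 2126 and 2102 against 9330, 10466 and 11790 CPM. These mRNAs were among the most abundant of the pellet. TLN1 (talin, which links integrins to actin) had a log2 fold change of 2.91 ± 0.18, SYNE2 (nesprin 2, of the nuclear envelope) one of 2.81 ± 0.15, and PRKDC, the DNA-dependent protein kinase, one of 3.34 ± 0.19. NBPF20 stood at 3.38 ± 0.16, but it belongs to a family of near-identical copies whose reads the counting could split. The lowest member of the giant list was KIF21A, a kinesin, with 0.82 ± 0.15, which is under the fold threshold.

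**Figure D3:**
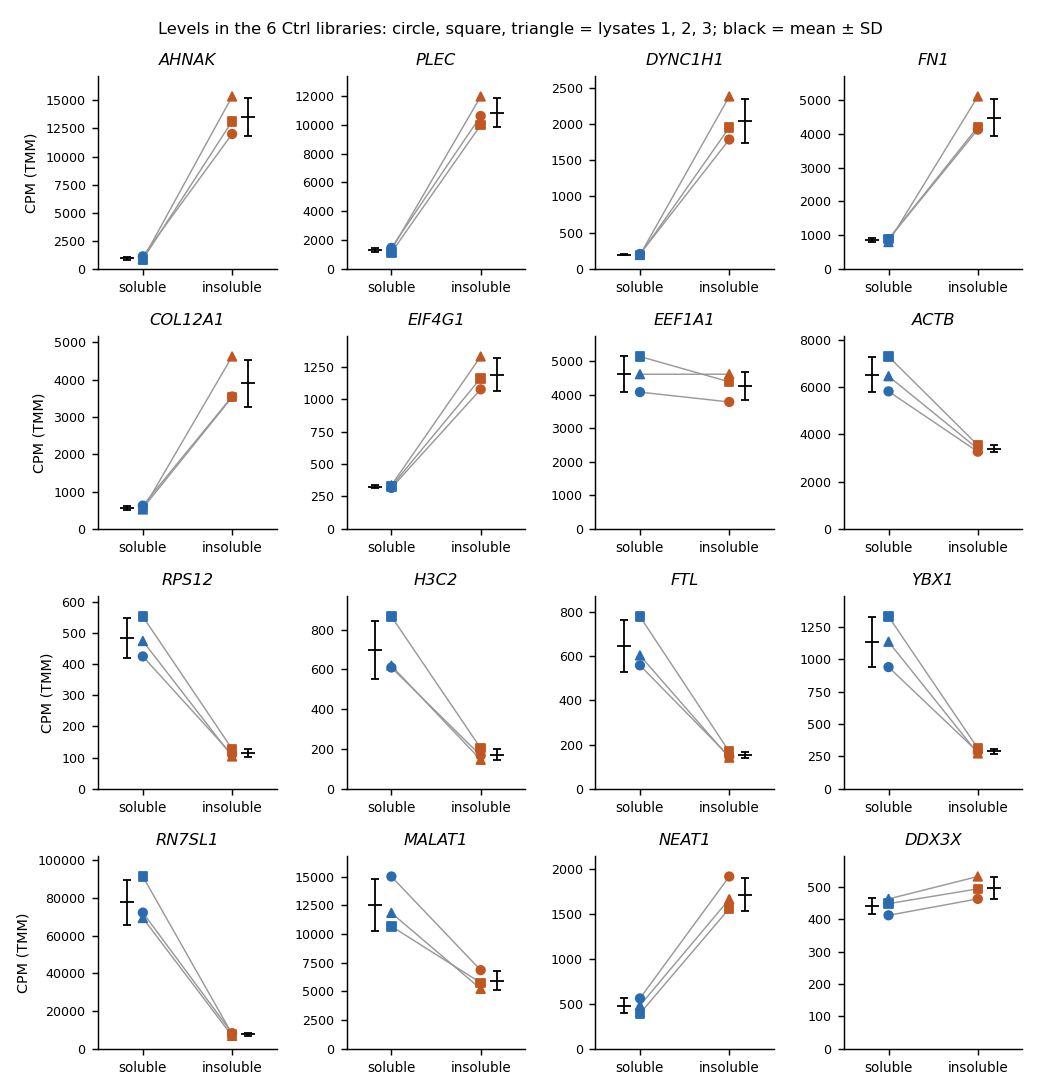
Each panel gives the CPM of 1 gene in the 3 soluble and 3 insoluble Ctrl libraries on an axis from 0, with lines joining the fractions of a lysate and black marks for the mean ± SD. AHNAK, PLEC, DYNC1H1, FN1, COL12A1, EIF4G1 and NEAT1 lie higher in all 3 pellets, RPS12, H3C2, FTL, YBX1, ACTB, RN7SL1 and MALAT1 lower, and the fractions overlap for EEF1A1, at 3785 to 4612 CPM in the pellet.

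mRNAs of the extracellular matrix followed. Of 18 tested collagen genes, 16 were called higher and 0 lower, with a median of 1.66, and of 35 matrix glycoproteins and proteoglycans, 21 were higher and 0 lower, with a median of 1.37. COL12A1, a collagen that coats fibrils, went from 621, 553 and 518 to 3548, 3529 and 4618 CPM (log2 2.78 ± 0.19). COL4A2, of the basement membrane, had 2.27 ± 0.26 and COL1A1, the main collagen of bone, 1.09 ± 0.41. The lowest was COL8A1, with 2232 coding bases, at 0.62 ± 0.17. FN1, which encodes fibronectin, went from 881, 883 and 792 to 4128, 4210 and 5108 CPM (log2 2.39 ± 0.18). FBN1 and FBN2, the microfibril proteins fibrillin 1 and 2, had log2 fold changes of 2.84 ± 0.22 and 2.82 ± 0.21.

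Some matrix mRNAs with short coding sequences were lower in the pellet, though not all of them: IGFBP5, which binds insulin-like growth factors, was at 0.90 and under the fold threshold. SPARC, a matrix glycoprotein of bone with 909 coding bases, went from 2433, 2541 and 2482 to 1767, 1755 and 1869 CPM. The ranges did not overlap and the log2 fold change was -0.47 ± 0.14, short of the fold threshold. TIMP1, a metalloproteinase inhibitor with 621 coding bases, had -0.94 ± 0.11.

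In the lists of cell-surface and secretory-pathway genes, members with long and with short reading frames again lay apart. Of 36 receptor tyrosine kinases and LDL receptor family members, 13 were higher and 0 lower, with a median of 0.81. NOTCH2, a receptor of cell contact signalling, went from 581, 539 and 501 to 2159, 2099 and 2756 CPM (log2 2.10 ± 0.18) and IGF2R, which carries lysosomal enzymes, had 2.59 ± 0.19. AXL, a receptor kinase with 2682 coding bases, had -0.41 ± 0.21 (edgeR adjusted p = 0.113). The list of integrins and adhesion receptors gave 5 higher (17.9%) and 2 lower (7.14%) of 28, beside 11.4% and 10.6% of all tested genes. Its median was 0.46, between ITGA2 at 1.49 ± 0.23 and the tetraspanin CD63 at -1.14 ± 0.15.

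Of 24 genes for COPI, COPII and Golgi coats, 6 were higher and 1 lower, with a median of 0.68. SEC16A, which marks the ER exit sites, led with 1.94 ± 0.13, and COPZ1, the small zeta subunit of COPI, was lowest with -1.47 ± 0.12. The list of translocon, signal peptidase and glycosylation genes, which hold the ER machinery itself, had 15 lower and 0 higher of 32 and a median of -0.95, from STT3A, a catalytic subunit of oligosaccharyltransferase, at 0.74 ± 0.20 to OST4, its smallest subunit with 111 coding bases, at -2.09 ± 0.20. ER chaperones (2 higher and 6 lower of 33, median 0.06), lysosomal genes (3 and 1 of 27, median -0.05), solute carriers and pumps (3 and 0 of 29, median 0.25) and sterol synthesis genes (1 and 2 of 23, median -0.05) were split or near the median of all genes. A score for a hydrophobic stretch within the first 35 residues, computed from the reading frame, was used as a rough stand-in for a signal peptide. The median was -0.05 in the 2123 genes with such a stretch and -0.08 in the 11273 without, and within classes of coding length the medians differed by 0.03 to 0.15. Of those with a stretch, 246 (11.6%) were higher and 194 (9.14%) lower, against 936 (8.3%) and 1209 (10.7%) without. With the trend with coding length removed, 147 of the 2123 with a stretch and 376 of the 11273 without were higher. This was a larger share with a stretch, beside 3.9% of all protein-coding genes, and 29 and 145 were lower. By further hydrophobic stretches, as in membrane proteins, 6.6% were higher among the 9458 genes with 0 of them, 13.2% with 1, 17.6% with 2 to 3 and 13.5% with more than 3. The shares called lower were 11.8%, 7.97%, 10.6% and 2.82%. The medians of these 4 classes were -0.13, 0.13, -0.02 and 0.07. Their median coding lengths differed, at 1374, 1752, 1473 and 1596 bases, and within classes of coding length the medians lay 0.08 to 0.38 apart. An effect apart from length was not tested.

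**Figure D4:**
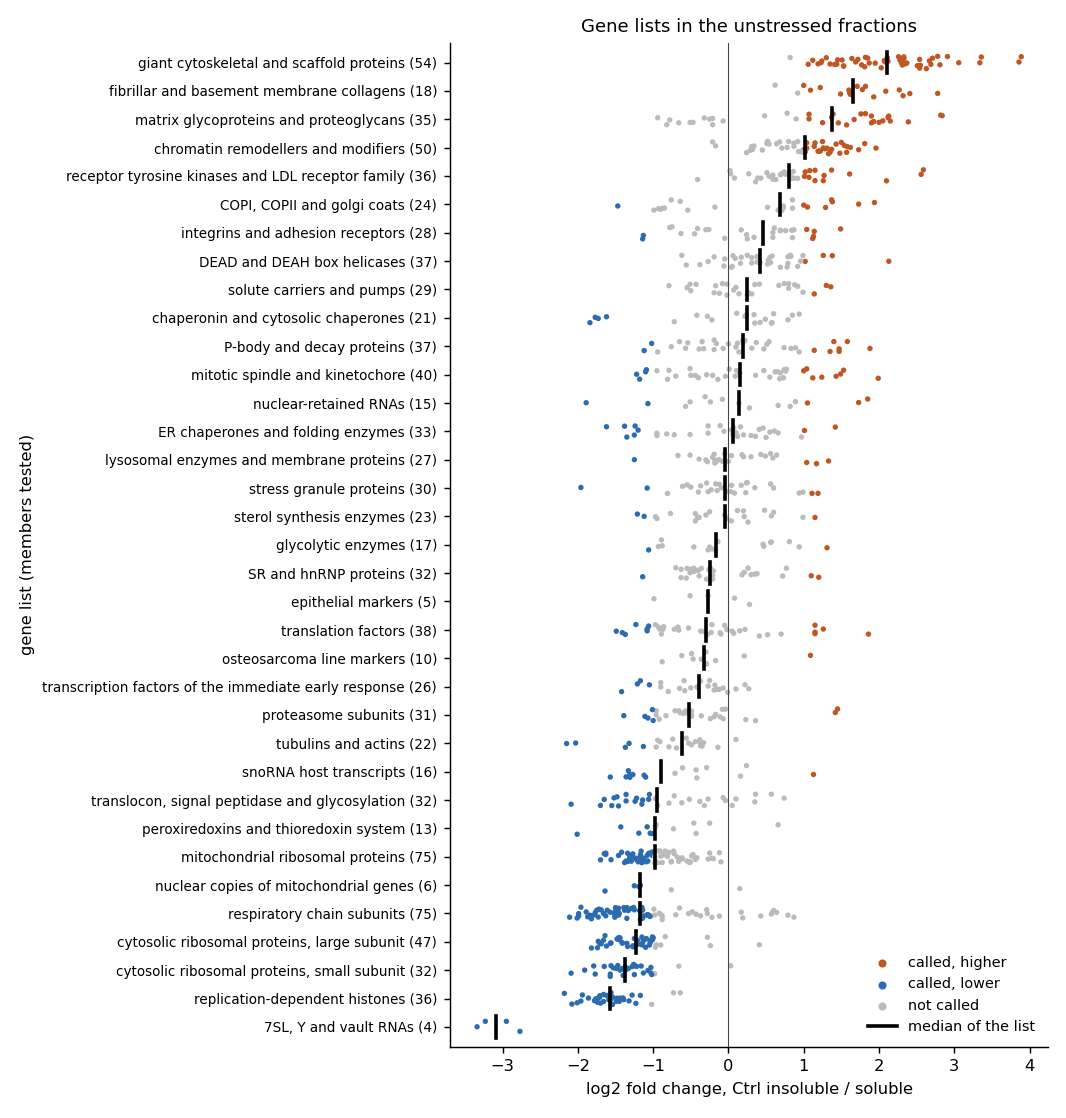
Each row is a gene list with its number of tested members, each point the log2 fold change of a member between the Ctrl fractions, coloured where called, and black bars are medians. The lists run from 7SL, Y and vault RNAs at -3.09 and replication-dependent histones at -1.58 to collagens at 1.66 and giant cytoskeletal and scaffold proteins at 2.11. In the 7SL, Y and vault row, only 7SL members were tested.

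The soluble side was led by mRNAs of small, abundant proteins. Of the 47 cytosolic ribosomal proteins of the large subunit, 40 were called lower in the pellet and 0 higher, with a median of -1.23, and of the 32 of the small subunit 29 were lower and 0 higher, with a median of -1.37. RPS12 went from 424, 552 and 474 to 110, 128 and 104 CPM (log2 -2.08 ± 0.14), and RPLP0, of the ribosomal stalk, from 1172, 1568 and 1301 to 490, 557 and 543 CPM (-1.34 ± 0.14). RPL3, which has one of the longer reading frames of the family with 1209 bases, had 414, 534 and 466 CPM in the supernatants and 544, 648 and 691 CPM in the pellets (0.41 ± 0.14), the highest of its list. Many ribosomal protein genes have processed copies in the genome, and reads that fit several places were not counted.

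The machinery of mitochondria behaved in the same direction. Of 75 mitochondrial ribosomal proteins, 36 were lower and 0 higher (median -0.98), and of 75 respiratory chain subunits, 50 were lower and 0 higher (median -1.18). ATP5F1B, the catalytic beta subunit of ATP synthase with 1587 coding bases, was instead at 0.64 ± 0.14, and ATP5ME, a small subunit with 207, at -2.11 ± 0.29, although 61% of its exon bases are shared with another gene. The mitochondrial genome itself had 0 counts in the deposited exon table. Of its copies in the nuclear chromosomes, 6 of 15 passed the filter, 4 were lower, 0 higher and the median was -1.18.

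Replication-dependent histones had the lowest median of the protein-coding lists. Of 55 genes, 36 passed the filter on low counts, 33 were lower, 0 higher, and the median was -1.58. H3C2 (chr6:26031589-26032099) went from 609, 865 and 619 to 167, 204 and 146 CPM (log2 -2.01 ± 0.17), and H4C3 (chr6:26103933-26104337) from 69.5, 106 and 65.7 to 14.4, 21.9 and 16.6 CPM (-2.18 ± 0.27). These mRNAs end in a conserved stem-loop in place of a poly(A) tail, and since the libraries were made from rRNA-depleted total RNA they were counted without poly(A) selection. The stem-loop is shown for the pair, with its 6-base stem arms in capitals, from the GRCh38 sequence of the canonical transcripts.
H4C3, chr6:26104317-26104332, plus strand: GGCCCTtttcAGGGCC
H3C2, chr6:26031597-26031612, minus strand: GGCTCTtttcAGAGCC
The search was for the histone stem-loop, a stem of 6 base pairs that starts with GG, closes on T and A and ends with CC around any 4 bases, G-U pairs allowed, in the last 100 bases of the transcript and on its own strand. It found a match in 35 of the 36 histone genes (97.2%) and in 51 of all 13396 searched (0.381%), whose median log2 fold change was -1.54. This median mostly repeats that of the histones. The 16 matches outside the list include further histones, such as H2AC7 at -2.32. Matches in other genes lay on both sides of 0, such as SEMA3G at 0.67 and TMEM160 at -0.62.

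The ferritins were among the mRNAs with the largest fall from soluble to insoluble. FTL, the light chain of the iron store, went from 559, 780 and 603 to 146, 168 and 141 CPM (-2.08 ± 0.15), and FTH1, the heavy chain, from 77.9, 90.7 and 78.7 to 18.2, 20.4 and 16.5 CPM (-2.17 ± 0.20), with 63% of its exon bases shared with another gene. Both carry the iron-responsive element, a 5′ UTR hairpin through which iron regulatory proteins block translation. It is shown with the 6 bases of its apical loop in capitals, from the GRCh38 sequence.
FTH1, chr11:61967574-61967603, minus strand: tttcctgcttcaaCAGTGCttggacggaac
FTL, chr19:48965334-48965363, plus strand: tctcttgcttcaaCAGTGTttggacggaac
The search for the iron-responsive element, an unpaired C, 5 bases, the loop CAGTGN and 5 bases that pair with the first 5, G-U pairs allowed, in the 5′ UTR on the transcript's strand, found 12 of 13396 genes (0.0896%). Their median log2 fold change was 0.05, from FTH1 at -2.17 to ADAR, an RNA-editing enzyme, at 0.78. These are matches of a short pattern, and which of them are working elements was not tested. The median thus describes pattern matches and not the holders of the element.

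Among mRNAs with a mean of at least 20 CPM, the others with the largest negative fold changes were PPDPF at -2.19 ± 0.17, TMSB4X (thymosin beta 4, which binds free actin) at -2.15 ± 0.24, SH3BGRL3 at -2.08 ± 0.15, H4C9 at -2.08 ± 0.33 and SNRPD2, a core protein of the spliceosomal particles, at -2.05 ± 0.13. With OST4, the ferritins, RPS12 and H4C3 they had 111 to 549 coding bases. GAPDH, the glycolytic enzyme often used as a reference, was also lower, from 1435, 1944 and 1628 to 758, 882 and 744 CPM (-1.06 ± 0.13). ACTB, beta actin, was at -0.94 ± 0.15 and thus not called. Other glycolytic mRNAs lay on either side, with HK1, hexokinase, at 1.31 ± 0.18 and PKM, pyruvate kinase, at 0.46 ± 0.20, so that 1 of 17 was higher, 1 lower and the median was -0.17.

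Complexes with subunits of unequal size had single members on opposite sides. In the proteasome, 2 of 31 genes were higher (6.45%) and 5 lower (16.1%), with a median of -0.53. The other 24 were not called, and of all tested genes 11.4% were higher and 10.6% lower. PSMD2, a large subunit of the regulatory base, went from 286, 375 and 328 to 746, 947 and 1022 CPM (1.45 ± 0.17) and PSMB3, a subunit of the core, from 115, 143 and 122 to 52.8, 51.1 and 41.7 CPM (-1.39 ± 0.15). Of 38 translation factors, 5 were higher (13.2%) and 7 lower (18.4%), with a median of -0.30, and the shares of all tested genes were 11.4% and 10.6%. EIF4G1, the scaffold of the cap-binding complex, went from 316, 328 and 336 to 1078, 1163 and 1332 CPM (1.86 ± 0.15). EEF1B2, an exchange factor of elongation, went from 251, 317 and 279 to 93.4, 104 and 103 CPM (-1.49 ± 0.13). EEF1A1, the most abundant elongation factor, had 4078, 5140 and 4611 against 3785, 4384 and 4612 CPM, and its 2 fractions overlapped (-0.11 ± 0.15, edgeR adjusted p = 0.57).

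In 4 smaller lists the calls were few or absent on 1 side. Of all tested genes, 11.4% were higher and 10.6% lower. Whether these lists differ from that background was not tested, and their counts rest on few genes. Of 13 peroxiredoxins and thioredoxin genes, 6 were lower and 0 higher, with TXN, thioredoxin, at -2.01 ± 0.17. Of 21 chaperonin and cytosolic chaperone genes, 4 were lower and 0 higher, yet the median was 0.24, from HSP90AB1 at 0.94 ± 0.13 to PFDN2, a prefoldin subunit, at -1.84 ± 0.15. Of 22 tubulins and actins, 5 were lower and 0 higher (median -0.62). Of 26 transcription factors of the immediate early response, 4 were lower and 0 higher (median -0.39), with ZFP36, an mRNA decay factor, lowest at -1.42 ± 0.18.

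Many mRNAs of large nuclear proteins were higher in the pellet too. Of 50 chromatin remodellers and modifiers, 27 were higher and 0 lower, with a median of 1.02. SMARCA1, an ATPase that slides nucleosomes, went from 23.2, 24.3 and 22.3 to 83.7, 87.3 and 102 CPM (1.96 ± 0.17). KMT2D, a histone methyltransferase with 16611 coding bases, had 1.25 ± 0.19. In the mitotic spindle and kinetochore list, 7 of 40 were higher (17.5%) and 4 lower (10.0%), beside 11.4% and 10.6% of all tested genes. Its values ran from CKAP5, a microtubule polymerase, at 1.99 ± 0.16 to BIRC5, survivin, at -1.22 ± 0.19.

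Most mRNAs that encode granule proteins were called in neither direction. Of 30 genes for stress granule proteins, 2 were higher (6.67%) and 2 lower (6.67%), with a median of -0.05. Of 37 for P-body and decay proteins, 7 were higher (18.9%) and 2 lower (5.41%), with a median of 0.19. Of all tested genes, 11.4% were higher and 10.6% lower. G3BP1, the nucleator of stress granules, had 371, 378 and 385 CPM in the supernatants and 408, 447 and 486 CPM in the pellets. These ranges did not overlap, but the log2 fold change was 0.24 ± 0.12 (edgeR adjusted p = 0.126). DDX3X, the target of RK-33, was at 412, 448 and 463 against 463, 494 and 532 CPM (0.17 ± 0.20, edgeR adjusted p = 0.501). These values are of the mRNAs and say nothing of where the proteins were.

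YBX1, whose protein coats mRNA, was the lowest of the stress granule list, from 940, 1330 and 1135 to 285, 313 and 273 CPM (-1.96 ± 0.15), and PRRC2C, a long translation regulator, was the highest, from 401, 384 and 431 to 861, 924 and 985 CPM (1.19 ± 0.21). Of 37 DEAD and DEAH box helicases, 4 were higher (10.8%, beside 11.4% of all tested genes) and 0 lower, with a median of 0.42. DHX9, a helicase of double-stranded RNA, led them, from 124, 120 and 123 to 481, 533 and 600 CPM (2.13 ± 0.14). Of 32 SR and hnRNP proteins, 2 were higher and 1 lower (median -0.25), with SRRM2, a scaffold of nuclear speckles, highest at 1.204 ± 0.11.

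Removing each library's trend with coding length shows how much of these list effects went with length. With the trend removed, 523 of 13397 protein-coding genes (3.9%) were called higher and 174 (1.3%) lower. Most of the higher calls were of scarce genes: 369 of the 523, and 91 of the 174, had a mean under 10 CPM. Of the lists above, the giant list then had 13 genes called higher and a median of 0.54, the collagens 6 and 0.69, the matrix list 7 and 0.38, and the receptor list 1 and 0.06. The chromatin list had 1 higher and 2 lower and a median of -0.13, so its direction turned. On the soluble side, the medians shrank to -0.33 for the large and -0.42 for the small ribosomal subunit, -0.21 for mitochondrial ribosomal proteins, -0.28 for the respiratory chain and -0.54 for histones. Of all the genes in these 5 lists, only 2, both of the small ribosomal subunit, were called lower, and 2 respiratory chain genes were called higher.

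Single genes kept a fraction effect of their own. CLTC, the clathrin heavy chain, went from 310, 324 and 292 to 1785, 2052 and 2520 CPM, with 2.76 ± 0.23 before and 1.82 after the trend was removed. AHNAK (1.87), AHNAK2 (1.92), PRKDC (1.64), TLN1 (1.61), DYNC1H1 (1.57) and DHX9 (1.43) also stayed above their length class, and all 7 were called. YBX1 stayed below it at -1.55. C14orf132, with 249 coding bases, was higher in the pellet at 0.78 ± 0.13 and stood at 2.09 relative to its length. PCLO, a presynaptic scaffold with 15426 coding bases, was lower at -0.90 ± 0.31 and stood at -2.78. NACA (-1.55 ± 0.19, then -2.68) is counted here with the length of a long muscle isoform as canonical transcript, so its value after the trend was removed may refer to an isoform that these cells do not use. The same holds for other genes of which a short isoform is the main one, such as RTN3 of the tubular ER, which went from -1.37 ± 0.12 to -1.90. These genes were picked after their values were seen.

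Some mRNAs with short coding sequences went against the trend, and nearly all of them were scarce. Of 9090 genes with under 2 kb of coding sequence, 228 were called higher in the pellet. Of these 228, 201 (88.2%) had a mean under 10 CPM, against 29.9% of the other 8862, and 80 (35.1%) lie entirely within the span of another gene, against 6.5% of the others. Scarce genes differ in this from abundant ones: among all short genes under 10 CPM, called or not, 12.5% lie within another gene. The median level of the 228 was 1.19 CPM in the supernatant and 3.49 CPM in the pellet. A gene at such a level passes the filter through the fraction in which it is high, so these counts describe the called genes and test nothing.

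Among them were receptors of smell and taste. Of 414 olfactory receptor genes of the table, 19 passed the filter, 13 were called higher and 0 lower, and 12 lie inside another gene. OR2AG1 went from 1.196 ± 0.378 to 5.22 ± 0.0231 CPM (SD, n = 3). Of 24 bitter taste receptors, 10 passed, 8 were called higher and 0 lower, and 9 lie inside another gene. TAS2R14 went from 0.779 ± 0.118 to 4.44 ± 0.182 CPM. OMG, EVI2A and EVI2B, which lie within introns of NF1, were at 2.02, 1.30 and 1.67. The counting used no strand, so a read from an intron of the host gene and a read from the gene inside it cannot be told apart. These families were chosen after their values were seen. Abundant exceptions were few, as for PSAP, the precursor of lysosomal saposins with 1572 coding bases, which went from 1329, 1294 and 1262 to 2797, 2652 and 3353 CPM (1.17 ± 0.20), CKAP4, a membrane protein of the ER (1.01 ± 0.16), and CBX6, a Polycomb protein (1.05 ± 0.17).

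Transcripts that are not translated showed a different picture. Of 2923 tested lncRNAs, 508 (17.4%) were higher and 332 (11.4%) lower, with a median of 0.11. Their medians by exon length went from 0.12 below 1 kb through -0.06, 0.07 and 0.16 to 0.38 above 8 kb. This is a narrower range than that of the mRNA classes, whose exon length medians ran from -1.47 to 0.39. Processed pseudogenes, which are copies of mRNAs, had 146 of 482 (30.3%) higher, 54 lower and a median of 0.66, but unique reads in near-identical copies are uncertain.

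RN7SL1 (chr14:49586580-49586878), the RNA of the signal recognition particle that brings ribosomes to the ER, had the strongest soluble preference of the abundant RNAs. It held 7.87%, 9.29% and 7.51% of the exon counts of the soluble libraries and 0.868%, 0.797% and 0.648% of those of the insoluble libraries. Its CPM went from 72229, 91377 and 69367 to 8292, 7840 and 6841 (log2 -3.34 ± 0.54, edgeR adjusted p = 0.000175), a 10.1-fold difference. All 4 tested members of the 7SL, Y and vault list were of the 7SL family, and no Y or vault RNA was tested. The 4 were lower, with a median of -3.09. They are multi-copy RNAs whose reads are shared with near-identical copies, so they are not separate observations.

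MALAT1, an lncRNA of nuclear speckles, was abundant in both fractions, at 15023, 10684 and 11851 against 6857, 5761 and 5228 CPM (-1.07 ± 0.16). NEAT1, the scaffold of paraspeckles, went the other way, from 560, 393 and 481 to 1915, 1558 and 1663 CPM (1.85 ± 0.18). Of the 15 tested nuclear-retained RNAs, 3 were higher and 2 lower, beside 11.4% and 10.6% of all tested genes. The median was 0.14, with 8 positive and 7 negative. Besides NEAT1, KCNQ1OT1 (1.73) and PVT1 (1.05) were called higher, and besides MALAT1, the small nuclear RNA RNU1-1 (-1.89) was called lower. Of the long RNAs not called, JPX (0.89), FTX (0.82) and SNHG14 (0.66) were positive. OIP5-AS1 (-0.57), MIAT (-0.51) and TUG1 (-0.24) were negative. Nuclear RNA was thus present in both cytoplasmic fractions. Its part in the fraction effects was not tested. Of 16 hosts of small nucleolar RNAs, 8 were lower and 1 higher, with a median of -0.90. SNHG3 was the lowest with -1.57 ± 0.12.

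Counts on introns were used to see whether unspliced or intron-derived RNA moved with its mRNA. Of all counts of a library, exon and intron together, 22.3%, 17.7% and 21.8% fell on introns in the soluble libraries and 36.3%, 33.3% and 30.5% in the insoluble libraries. The groups did not overlap, and the share was higher in the pellet by 12.8 ± 3.59 percentage points (SD, n = 3 lysates), in 3 of 3 lysates. An exact sign-flip permutation test gave p = 0.25, which is the smallest p that 3 lysates allow.

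Scaled within the intron table, 1120 of 17406 genes (6.43%) were higher and 2054 (11.8%) lower, with a median of -0.10. With library size alone these were 421 and 3811. The order by coding length was present but flatter, with class medians of -0.73, -0.40, -0.13, 0.14 and 0.35 from the shortest to the longest, and rho with coding length was 0.37 against 0.72 for exons. Most genes called on exons were not called on introns. Of 1014 protein-coding genes called higher on exons and tested in both tables, 137 (13.5%) were also higher on introns, 18 were lower and 859 were not called. Of 1069 called lower on exons, 312 (29.2%) were also lower on introns, 10 were higher and 747 were not called. AHNAK, at 3.86 on exons, was at -0.18 on introns, CLTC at 0.08 and DYNC1H1 at 0.10. Exon and intron counts were scaled separately, while introns held a larger share of all counts in the pellet. A value near 0 on introns is therefore relative to the other introns and not to all RNA of the library.

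**Figure D5:**
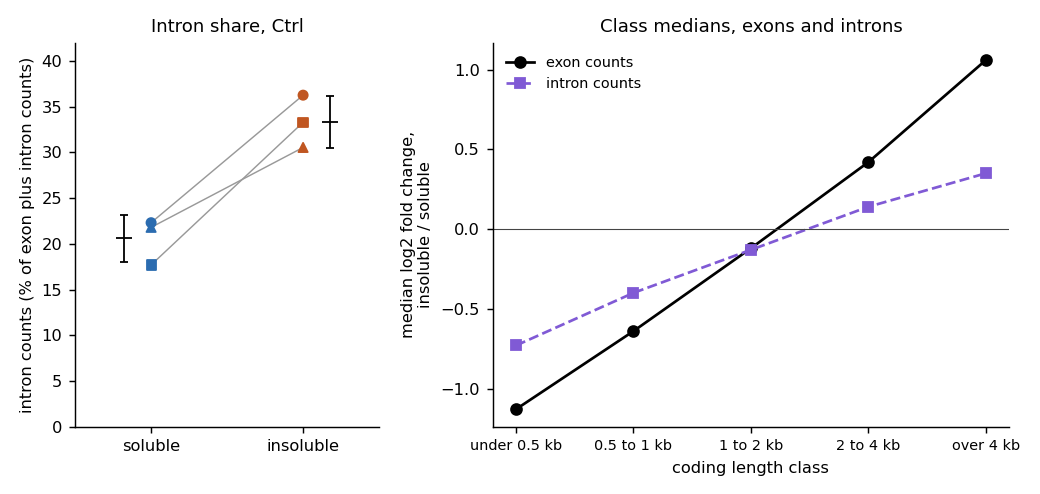
The left panel gives the intron share of the exon plus intron counts, in percent, of each Ctrl library, with lines joining the fractions of a lysate and black marks for mean ± SD, and the right panel the class medians of log2 fold change for exon and intron counts by coding length. The share lies at 17.7% to 22.3% in the soluble and 30.5% to 36.3% in the insoluble libraries, and the intron medians run from -0.73 to 0.35 where the exon medians run from -1.13 to 1.06. In the right panel, exon and intron counts were scaled separately.

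Some introns stood out against the exons of their own gene, with introns and exons each on their own scale. The introns of SF3B4, a splicing factor, went from 146, 162 and 115 to 21.2, 14.2 and 10.96 CPM of the intron table (-3.21), whereas its exons were at -1.06. The introns of TUBA4A, a tubulin, were at -2.96 with exons at -0.35, and those of CCDC124 at -2.80 with exons at -1.16. In the other direction, the introns of KLHL4 went from 33.1, 27.9 and 36.9 to 177, 178 and 144 CPM (2.35), while its exons, at 0.41, were not called, and those of LINC00113, a lncRNA, were at 2.20 with exons at 2.44.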

How the data were processed

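U2OS cytoplasm was fractionated, RNA was depleted of rRNA, and directional paired-end libraries were sequenced. The authors aligned the reads to GRCh38.p13 with STAR 2.7.2b, and deposited raw counts of uniquely aligned fragments per gene of GENCODE 40, from featureCounts 1.5.3 of Subread, separately for exons and for introns (overlap of at least 25 bases). Strand was not used, so overlapping and antisense genes cannot be told apart. SAMtools 1.2 is also named in the submitters' processing notes. The circRNA tables were not used here, and some genes that the rule below names are not reported here. No value column belonged to another sample.

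Libraries were grouped by their labels. Genes that averaged 1 CPM or more over 24 libraries were fitted with edgeR 4.0.16 (R 4.3.3; TMM, quasi-likelihood test) with 12 lysate blocks and 1 fraction effect for each of 4 treatments, and p-values were adjusted by Benjamini-Hochberg over all tested genes. The SE is the fold change divided by the root of F. Ratios of a single lysate used CPM + 0.5. The block rests on both fractions coming from the same lysate, and the study also paired them. The deviations of same-numbered Ctrl libraries from their group means correlated at 0.22, 0.34 and 0.09. Coding lengths, UTRs and gene types came from GENCODE 44 canonical transcripts, with 17571 of 17666 tested genes matched by name. Coordinates are GRCh38. Named genes were, per list, the 3 most abundant and the members with the highest and the lowest fold change, and overall the 10 protein-coding genes at each end with at least 20 CPM and 1 direction in all lysates, the 5 introns at each end and the 3 strongest interactions in each direction; genes chosen otherwise are named as such or are examples. The members and lists were chosen with earlier results of these data known. The fit was tested on simulated counts. Alternatives were other scalings, filters, thresholds and tests (DESeq2 1.42.0, likelihood ratio), fits without the block or of Ctrl alone, a correction for exon length, and each replicate left out. Tables and figures were made with Python 3.11, pandas 2.3.3 and matplotlib 3.10.9.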

Additional observations from a re-analysis of the deposited data

Results flagged for a closer look

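The fraction effect of Ctrl was set against that of the other treatments by a test of the difference itself, in the same fit of 24 libraries. Each comparison shares the Ctrl libraries. Between NaAsO2 and Ctrl, 662 of 17666 genes (3.75%) had a more positive and 856 (4.85%) a more negative log2 fold change of insoluble over soluble (edgeR, adjusted p under 0.05 and a difference of at least 1). Among the genes named here, 29 differed, 7 more positive and 22 more negative. Some of these genes were named because this difference was strong, and others for an extreme fold change in Ctrl, which enters the difference. The counts thus describe the named genes and test nothing. The more positive ones under NaAsO2 were NORAD, a lncRNA that binds Pumilio proteins, by 2.19, C14orf132 and POMK by 1.85 each, ZCCHC14 by 1.78, KMT2D by 1.40, ZFP36 by 1.35 and FEM1B by 1.27.

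The more negative ones included mRNAs that were among the higher ones in the Ctrl pellet: FN1 by -2.18, DHX9 by -1.83, CLTC by -1.70, COL12A1 by -1.12, HK1 by -1.06 and PSMD2 by -1.0. STT3A differed by -2.26, TKT, an enzyme of the pentose phosphate pathway, by -1.80, COPG1 of the COPI coat by -1.75, STIP1, a co-chaperone, by -1.71, HSP90AB1 by -1.43, GAPDH by -1.35, ATP5F1B by -1.33, NACA by -1.32, VIM by -1.25, EEF1B2 by -1.19, TXN by -1.14, PSMB3 by -1.12, YBX1 by -1.10, OST4 by -1.04, PKM by -1.02 and SNHG3 by -1.01. Of the 29, 18 passed with each of the 6 Ctrl and NaAsO2 lysates left out in turn. Replicate 3 of the NaAsO2 insoluble fraction stood apart from its group, and without that lysate 22 of the 29 passed. COL12A1 (-0.98), NACA (-0.95), OST4 (-0.98), SNHG3 (-0.98), TXN (-0.86), VIM (-0.87) and YBX1 (-0.94) did not.

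Between RK-33 and Ctrl, 0 genes (0%) were more positive and 39 (0.221%) more negative by edgeR, with 888 and 1378 at an unadjusted p under 0.05. Of the genes named here, some of them picked by such a difference, TKT differed by -1.37, FN1 by -1.33, DHX9 by -1.27, COPG1 by -1.25, STIP1 by -1.08 and HSP90AB1 by -1.06. With a Ctrl or RK-33 lysate left out, the differences stayed close to these values (TKT -1.51 to -1.23, FN1 -1.39 to -1.18, DHX9 -1.34 to -1.19, COPG1 -1.33 to -1.18, STIP1 -1.12 to -0.99 and HSP90AB1 -1.16 to -0.98), although 0 of the 6 genes passed in every one of these fits, which have fewer lysates. Without NaAsO2 replicate 3, all 6 passed at the same differences. The number of calls over all genes was 1 without Ctrl replicate 1, 2 or 3 or RK-33 replicate 2 or 3, and 5 without RK-33 replicate 1.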

How the results depend on the processing

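The 3878 Ctrl calls became 1979 with a mean of at least 10 CPM, 463 at a fold change of at least 4 and 8522 with no limit on the fold, and 3232 to 4055 with a replicate left out. The 3174 intron calls became 1606, 619 and 6477, and 2174 to 2752. With library size alone, 421 introns were called higher and 3811 lower, and the median of all introns moved to -0.45, so the direction of intron calls is relative to the scaling. The NaAsO2 difference gave 1053 to 2473 calls against 1518 (1591 more positive and 882 more negative without NaAsO2 replicate 1), and its split of 662 to 856 became 782 to 726 with RLE factors and 933 to 505 with library size alone. The 39 RK-33 calls became 23 with library size alone, 92 with the likelihood ratio test, 81 with DESeq2 and 117 with no filter, and 1 to 128 with a replicate left out. Depth limits the scarce genes: 2299 of the 3878 calls had a mean under 20 CPM.

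Without the replicate block, 2083 genes were called higher and 1890 lower in Ctrl (3973), and 77 in the RK-33 difference. Over the 4 treatments, 3 of 12 same-numbered pairs correlated above 0.1, so the pairing rests on the shared lysate. Without the block, no other count of calls moved by over 1.5 times.

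The class medians, from shortest to longest coding length, were -1.21, -0.73, -0.20 and 0.34 with library size alone (the last class within its spread), and -0.94, -0.50, 0.26 and 0.68 for the classes below 1 kb and above 2 kb after removal of the trend with exon length. With exon plus intron counts the longest class was at 0.91. With a replicate left out they were -1.22 to -1.12, -0.72 to -0.64, -0.18 to -0.14, 0.36 to 0.39 and 0.97 to 1.06. The intron share rose by 11.3 to 14.8 percentage points with a lysate left out. Removal of the trend with coding length, chosen after seeing the data, left 697 calls, 409 of them among the 3878, and by construction brought the medians to -0.05, -0.04, -0.01, 0.02 and -0.01. It turned the chromatin list (-0.13), PRRC2C (-0.22), SRRM2 (-0.16), KMT2D (-0.69), ABCA13 (-1.74), DNAH14 (-1.42) and RYR1 (-1.40). The fits without NaAsO2 replicate 3 were also chosen after seeing the data. Of the other values of named genes under an alternative, 3122 kept their direction and call, 90 lost the call, 35 gained it and 80 that were not called changed sign. Of the values of lists and exon length classes, 275 moved by less than the spread of the lysates and 140 by more.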
